A study of Mus musculus with 6 samples.

Results

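The genes described here are 10 lens fibre genes, chosen by symbol as members of the fibre cytoskeleton or as genes of organelle loss and late fibre differentiation. They are Bfsp1, Bfsp2, Vim and Tmod1 of the cytoskeleton, Lgsn and Grifin, which encode soluble fibre proteins, and Hsf4, Dnase2b, Tdrd7 and Caprin2 of fibre maturation. All 10 were matched by Entrez identifier among the 27179 identifiers of the series, and all 10 passed the filter on low values together with 11468 genes in all. RNA sequencing was run on lenses of mouse pups on postnatal day 1, with 3 libraries labelled Gclc KO (KO 1 to 3) and 3 labelled Gclc CON (CON 1 to 3). Both groups carry the same strain label, B6/FVB, and no treatment is named. Gclc is the gene of the catalytic chain of the ligase that joins glutamate to cysteine, the first step towards glutathione. The labels name neither a Cre driver, nor the altered exons, nor the alleles that the CON animals carry, and do not say whether each library came from 1 animal or from pooled lenses. The p-values below therefore measure only the spread between these libraries.

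A lens is a sphere of fibre cells under a front layer of epithelium. Epithelial cells at the equator leave the cell cycle, elongate into fibres, fill with crystallins, and later destroy their nuclei and mitochondria so that light passes. Fibres carry beaded filaments, an intermediate filament network found in no other tissue, built from filensin (Bfsp1) and CP49, also called phakinin (Bfsp2). Vimentin (Vim) filaments are present in the epithelium and young fibres and are lost from older ones, and vimentin is also made by mesenchyme, endothelium, glia and blood cells. The FVB/N strain is known to carry a deletion in Bfsp2 that makes its transcript skip an exon and leaves the lens without beaded filaments. Gene-level reads do not show which Bfsp2 allele a library carries, and the part of strain in the results was not tested.

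Levels are given in normalised reads, that is, reads recovered from the deposited values and divided by the size factor of the library. Where 3 values stand for a group they follow the replicate numbers, and errors of means are SDs over the 3 libraries. Differences between the groups are on the deposited log2 scale, with KO lower where the sign is negative, and this variance-stabilised scale shrinks the differences of genes with few reads. A gene was called where its p, adjusted over all genes tested, lay under 0.05. Libraries held 20361430 (CON 2) to 61219009 (KO 3) reads in genes, and the 10 genes had from 129 (Lgsn, KO 2) to 360166 (Bfsp2, KO 3) reads each. The library labels were checked on Gclc, which had 178, 283 and 173 normalised reads in CON against 17.9, 72.1 and 58.1 in KO. Lens identity was checked on 13 lens markers (among them 9 crystallin genes, Mip and Lim2). All 13 had reads in every library, and their summed level ran from 22252500 to 31826200 normalised reads in CON and from 8675880 to 12662800 in KO. Of these 13 markers, 10 fell and 0 rose, with a median log2 difference of -1.38. Over all genes tested, 4.39% fell and 6.91% rose. The calls of Cryaa, Cryba1, Cryba4, Crybb1, Crybb3 and Lim2 ended in 1 or more of the fits with 1 library left out.

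The promoters of 5 of the genes are printed here because Bfsp1, Bfsp2, Lgsn and Dnase2b fell and Vim rose in the same libraries. Each window holds 250 bases before and 50 bases after the start of the transcript, 5′ to 3′ on the gene's strand, from RefSeq (GRCm38.p6), and serves for sequence only, since reads were aligned to mm9. For the Bfsp2 and Grifin windows a stretch of the bases after the RefSeq start was not found in any GENCODE transcript of the gene, so positions in these 2 windows hold for the RefSeq start only. Capitals mark matches to any of 4 motifs, searched on both strands. GAANNTTC and TTCNNGAA are each only a part of a heat shock element. TGCTGA is the half-site of MAF factors, and TGANTCA is the AP-1 site.
Bfsp1, chr2:143863124-143863423, minus strand: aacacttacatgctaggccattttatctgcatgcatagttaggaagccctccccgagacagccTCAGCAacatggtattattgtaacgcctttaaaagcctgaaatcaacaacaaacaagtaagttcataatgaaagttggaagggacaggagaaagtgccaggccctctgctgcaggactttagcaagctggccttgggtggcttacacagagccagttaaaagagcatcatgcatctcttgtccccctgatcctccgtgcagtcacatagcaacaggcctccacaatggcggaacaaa
Bfsp2, chr9:103449127-103449426, minus strand: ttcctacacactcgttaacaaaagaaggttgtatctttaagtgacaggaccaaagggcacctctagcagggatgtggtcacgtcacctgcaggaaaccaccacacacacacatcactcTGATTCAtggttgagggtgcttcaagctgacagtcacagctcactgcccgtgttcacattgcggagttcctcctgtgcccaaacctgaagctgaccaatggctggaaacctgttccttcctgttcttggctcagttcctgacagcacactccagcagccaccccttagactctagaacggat
Lgsn, chr1:31176185-31176484, plus strand: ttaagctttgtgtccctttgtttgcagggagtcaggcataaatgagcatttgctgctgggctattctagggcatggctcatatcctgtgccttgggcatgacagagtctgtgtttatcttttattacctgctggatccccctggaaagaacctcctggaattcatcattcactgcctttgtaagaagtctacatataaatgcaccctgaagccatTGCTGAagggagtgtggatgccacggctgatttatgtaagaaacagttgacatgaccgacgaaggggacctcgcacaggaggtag
Dnase2b, chr3:146615549-146615848, minus strand: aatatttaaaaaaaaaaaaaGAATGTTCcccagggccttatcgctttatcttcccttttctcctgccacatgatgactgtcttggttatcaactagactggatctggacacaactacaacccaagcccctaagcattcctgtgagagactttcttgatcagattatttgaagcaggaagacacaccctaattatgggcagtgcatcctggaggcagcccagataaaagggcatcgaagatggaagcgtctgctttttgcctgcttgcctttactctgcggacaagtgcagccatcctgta
Vim, chr2:13574061-13574360, plus strand: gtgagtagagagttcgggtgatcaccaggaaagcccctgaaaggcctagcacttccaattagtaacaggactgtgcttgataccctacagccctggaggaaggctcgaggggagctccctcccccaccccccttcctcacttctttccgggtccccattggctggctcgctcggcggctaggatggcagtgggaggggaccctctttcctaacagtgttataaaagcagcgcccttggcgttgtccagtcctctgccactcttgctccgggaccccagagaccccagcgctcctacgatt

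RefSeq windows were found for 9 of the 10 genes (11 windows, 3 of them for Tdrd7), all but Hsf4. GAANNTTC was found in the Dnase2b window only, as GAATGTTC with its first base 230 bases before the start, and 7.86% of 32851 promoter windows of the same length hold that motif. TTCNNGAA was found in 1 Tdrd7 window (TTCATGAA, 52 bases before the start) and in 8.52% of all windows. TGCTGA was found in the Bfsp1 window, as its complement TCAGCA 187 bases before the start, in the Lgsn window 35 bases before the start and in 1 Tdrd7 window, against 19.5% of all windows. TGANTCA was found in the Bfsp2 window (TGATTCA, 132 bases before the RefSeq start) and in 7.81% of all windows. The windows of Vim, Tmod1, Grifin and Caprin2 held none of the 4 motifs. These matches describe the letters only, and no motif was shared by all genes that fell.

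Both beaded filament genes were lower in KO lenses, and vimentin was higher. Of the 10 genes, 7 fell (Bfsp1, Bfsp2, Lgsn, Hsf4, Dnase2b, Tdrd7 and Caprin2), 1 rose (Vim) and 2 did not pass (Grifin and Tmod1). Over all 11468 genes tested, 4.39% fell and 6.91% rose. The median log2 difference was -1.02 over the 10 genes and 0.03 over all genes tested. In 7 of the 10 genes every KO library lay below every CON library, which held for 14.1% of all genes tested, and Vim lay above in every KO library, which held for 16.9%. In whole lenses, fewer fibre cells and less of a transcript per fibre cell cannot be told apart.

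**Figure D1:**
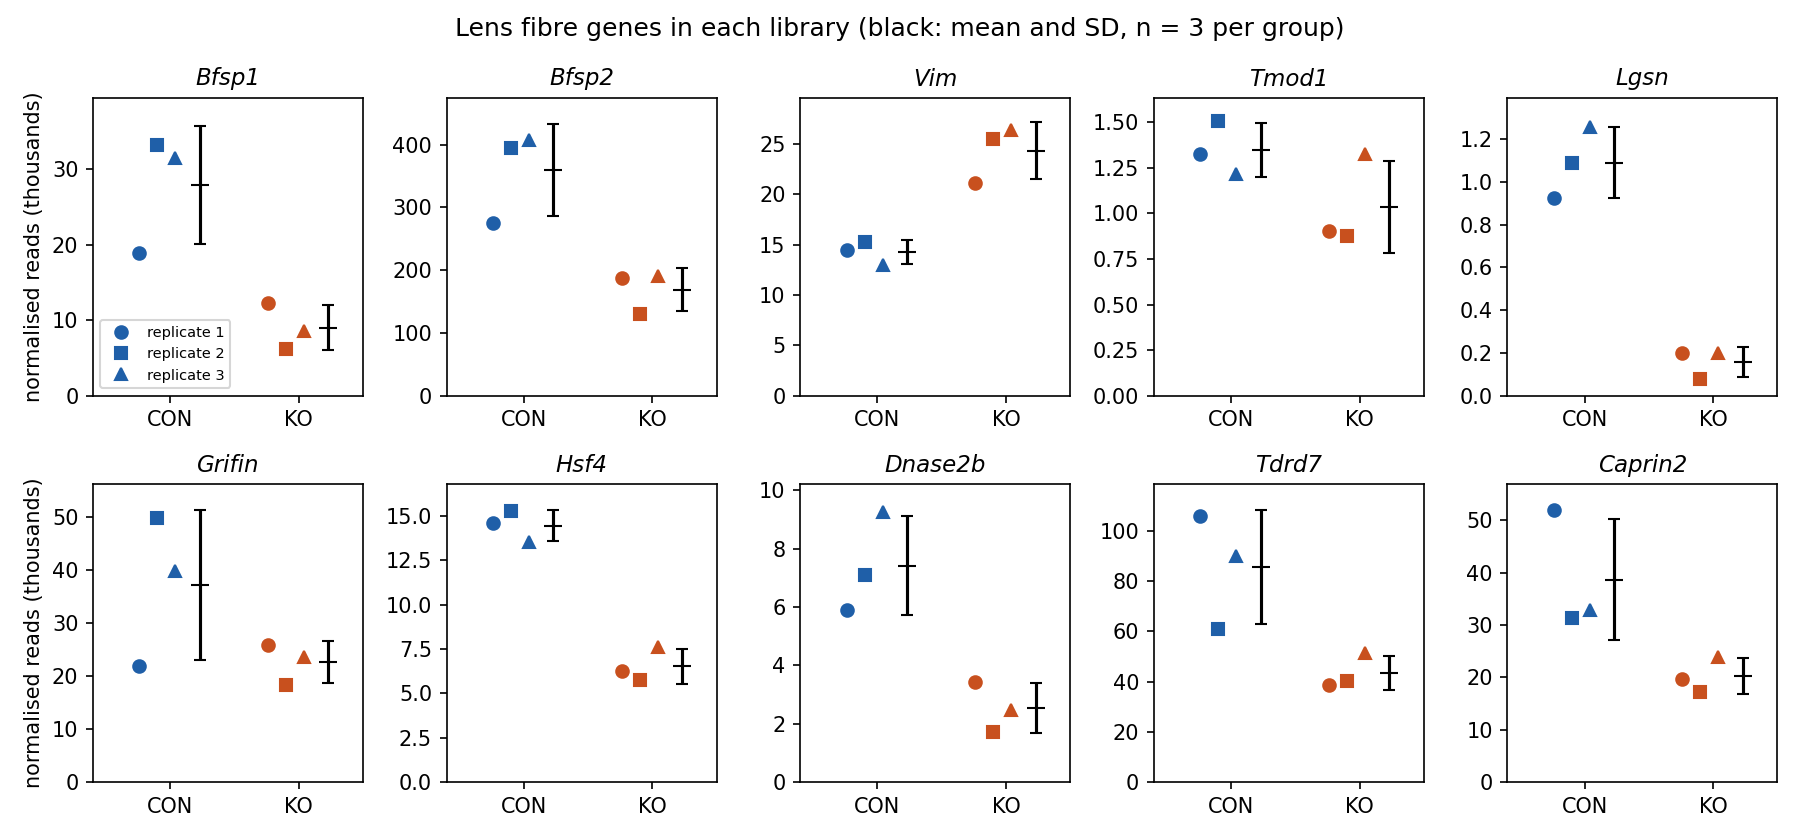
Normalised reads (vertical axes, in units given on each axis, from 0, a separate scale for each gene) of the 10 lens fibre genes in CON (blue) and KO (orange), with 1 point per library, the symbol giving the replicate number, and the mean ± SD in black. KO points lie below all CON points for 7 genes, above them for Vim, and overlap them for Grifin and Tmod1, where KO 2, and for Tmod1 also KO 1, lies below every CON point.

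Bfsp1, which encodes filensin, had 18971, 33284 and 31562 normalised reads in CON against 12237, 6253 and 8628 in KO. The groups did not overlap, with CON 1 the lowest CON library and KO 2 the lowest KO library. The mean went from 27939 ± 7814 to 9039 ± 3013, which is 3.09-fold lower, and the log2 difference was -1.62 (SE 0.28, 95% interval -2.24 to -0.997, adjusted p = 0.00473). The call held with any of the 6 libraries left out, with differences from -1.87 to -1.38.

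Bfsp2, which encodes CP49, was the most abundant of the 10 genes. It had 274739, 394407 and 408041 normalised reads in CON against 187061, 129745 and 190362 in KO. CON 1 was again the lowest of the CON and KO 2 of the KO libraries, and the groups did not overlap. The mean went from 359063 ± 73344 to 169056 ± 34085, a 2.12-fold fall (log2 difference -1.09, SE 0.27, 95% interval -1.68 to -0.49, adjusted p = 0.0250). Leaving out any library but CON 1 ended the call (differences from -1.18 to -0.91, highest adjusted p 0.118). An antisense transcript, 5830418P13Rik, shares 201 of the 1698 annotated exon bases of Bfsp2, and the strand setting of the counting is not given in the sources used here.

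Vim, which encodes vimentin, was the only gene of the 10 that rose. It had 14428, 15317 and 12952 normalised reads in CON against 21099, 25500 and 26430.2 in KO. The lowest KO library stood above the highest CON library. The rise was 1.71-fold (14232 ± 1195 to 24343 ± 2848), with a log2 difference of 0.76 (SE 0.19, 95% interval 0.34 to 1.19, adjusted p = 0.0271). Leaving out CON 2, CON 3, KO 2 or KO 3 ended its call (highest adjusted p 0.156), as did equal library medians (0.64, adjusted p = 0.0866).

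Markers of other cells that make vimentin also differed between the groups, and their part in the Vim result was not tested. Of 14 macrophage markers, 10 rose and 0 fell, and their summed level ran from 1709 to 3121 normalised reads in CON and from 6673 to 20485 in KO. That sum was highest in KO 1 (20485) and lowest in KO 3 (6673). The calls of Csf1r, Adgre1, Fcer1g, Mrc1 and Lyz2 among the 10 ended in 1 or more of the fits with 1 library left out. With voom on recovered reads and the size factors, Ptprc (adjusted p = 0.205), Csf1r (0.0804), Adgre1 (0.306), Fcer1g (0.0944) and Mrc1 (0.15) were not called. Ptprc, Adgre1 and Fcgr1 of the 14 markers were at 0 in CON 2. They were at 24.3, 46.4 and 8.44 in CON 1 and at 2.95, 124 and 70.8 in CON 3. In KO they ran from 103 to 339, from 329 to 1771 and from 50.7 to 191. Fcgr1 was not called (limma, adjusted p = 0.0865). Of 4 tested glial markers 2 rose (Slc1a3, and Rlbp1, whose call ended without any 1 KO library), and the sum of the 5 listed ran from 1299.8 to 1766 in CON and from 4332 to 4697 in KO. Gfap, the defining astrocyte gene of that list, lay the other way (401, 302 and 409 in CON against 115, 221 and 98.8 in KO; -0.87, adjusted p = 0.0605). The summed levels of the 7 endothelial markers (2197 to 2260 in CON, 1062 to 3650 in KO) and of the 8 mesenchyme and pericyte markers (1059 to 2039 in CON, 708 to 2562 in KO) overlapped between the groups. None of the 7 tested endothelial and 2 tested mesenchymal markers passed (limma, smallest adjusted p = 0.0691 for Cdh5).

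The balance of the filament transcripts was read within each library as a ratio of reads per kilobase of exon, which does not depend on how libraries are scaled to each other. Vim stood at 0.829, 0.502 and 0.447 of Bfsp1 in CON against 1.88, 4.44 and 3.34 of it in KO. Thus Bfsp1 had more reads per kilobase than Vim in all 3 CON libraries, and Vim more than Bfsp1 in all 3 KO libraries. The ratio of Vim to Bfsp2 was 0.0311 ± 0.00800 (SD, n = 3) in CON and 0.113 ± 0.0325 in KO, without overlap. The 2 beaded filament genes did not keep a fixed ratio: Bfsp1 stood at 0.0480, 0.0587 and 0.0538 of Bfsp2 in CON against 0.0455, 0.0335 and 0.0315 in KO. These ranges did not overlap, but KO 1 lay close to CON 1. No test was made on the ratios.

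**Figure D2:**
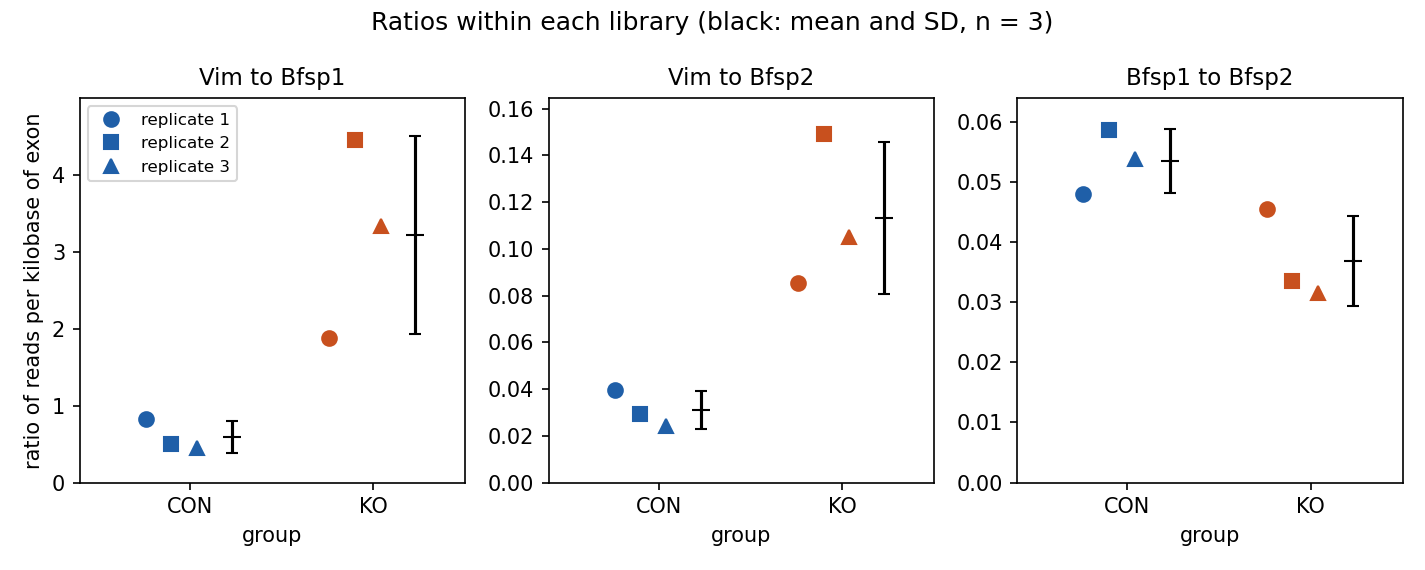
Ratio of reads per kilobase of exon between 2 genes within the same library (vertical axes, from 0) for Vim to Bfsp1, Vim to Bfsp2 and Bfsp1 to Bfsp2, with 1 point per library and the mean ± SD in black. Vim to Bfsp1 lies at 0.829 or below in CON and at 1.88 or above in KO, and Bfsp1 to Bfsp2 is lower in all KO libraries.

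Tmod1 encodes tropomodulin 1, which caps the pointed ends of actin filaments in the spectrin network under the fibre membrane. It had 1324, 1504 and 1215 normalised reads in CON against 902, 877 and 1328 in KO. KO 3 lay among the CON libraries, and the difference did not pass (-0.35, SE 0.23, 95% interval -0.85 to 0.15, adjusted p = 0.366). Of its 3946 annotated exon bases, 1287 lie opposite exons of Tstd2, so reads of the 2 genes are not safely separate. Tmod1 is also made in red cells, whose 6 matched markers summed to 4414 to 6826 normalised reads in CON and 2254 to 3631 in KO; their part was not tested.

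Lgsn had the largest fall of the 10 genes. It encodes lengsin, a lens protein related to glutamine synthetase that is not known to act as the enzyme. It had 923, 1089 and 1254 normalised reads in CON against 198, 77.6 and 200.3 in KO. Every KO library was far below the CON range, with KO 2 the lowest. The mean was 1088 ± 166 in CON and 158 ± 70.1 in KO, 6.87-fold lower (log2 difference -2.04, SE 0.27, 95% interval -2.63 to -1.45, adjusted p = 0.00101). The call held in all 6 fits with 1 library left out (-2.16 to -1.81). Of its 1937 exon bases, 280 lie opposite exons of 4931428L18Rik.

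Grifin encodes a galectin-related protein of lens fibres that does not bind galactosides in the way galectins do. It had 21831, 49888 and 39858 normalised reads in CON against 25925, 18223 and 23625 in KO. CON 1 fell inside the KO range, while CON 2 and CON 3 stood above it. The difference did not pass (-0.65, SE 0.29, 95% interval -1.29 to -0.01, adjusted p = 0.181), whereas without CON 1 it was -0.99 with an adjusted p of 0.0131, and with library weights the adjusted p was 0.0334.

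**Figure D3:**
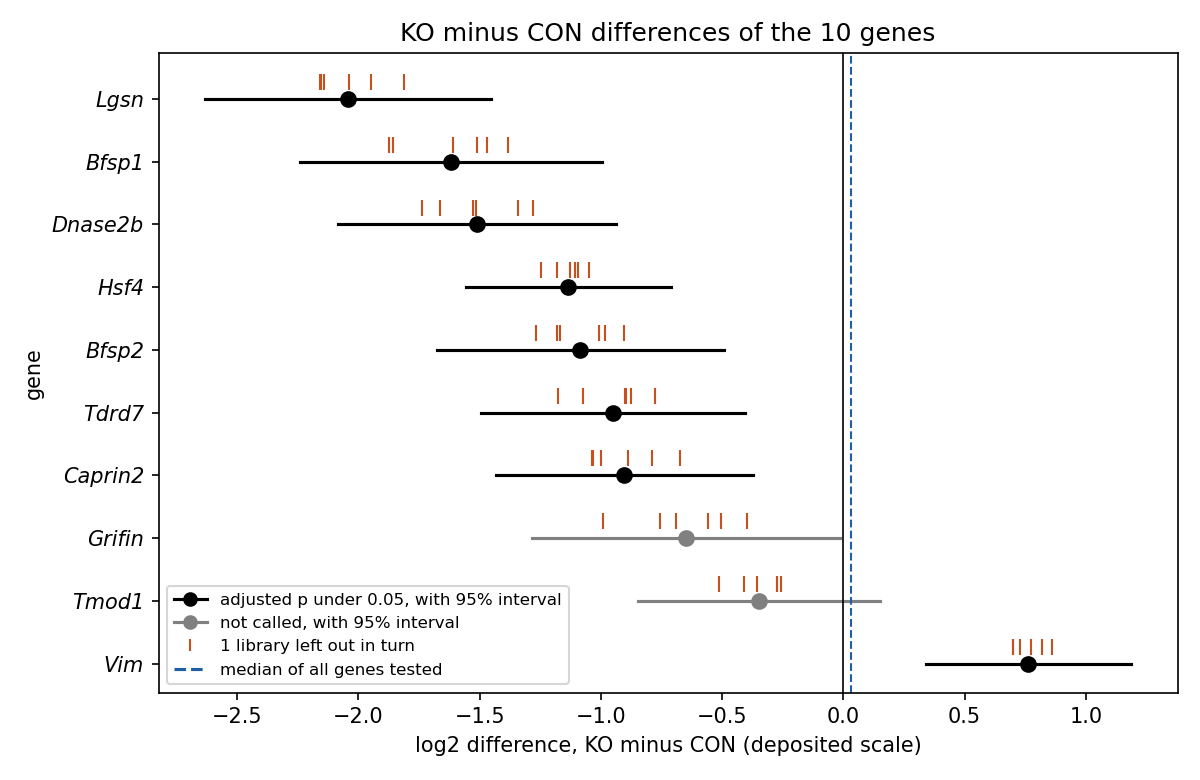
Log2 difference KO minus CON on the deposited scale (horizontal axis) for each of the 10 genes, with the 95% interval as a bar, black where called and grey where not; orange ticks give the difference with each of the 6 libraries left out, and the dashed line the median of all genes tested, 0.03. Lgsn lies furthest to the left at -2.04 and Vim alone to the right at 0.76.

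All 4 maturation genes fell. Hsf4 encodes a heat shock transcription factor of the lens, whose mutation causes cataract and which is needed for Dnase2b expression in fibres. It had 14578, 15286 and 13515 normalised reads in CON against 6237, 5725 and 7610.5 in KO. The SD of the CON libraries was 6.16% of their mean, the smallest of the 10 genes. Hsf4 was 2.22-fold lower in KO (14460 ± 891 to 6524 ± 975; log2 difference -1.13, SE 0.19, 95% interval -1.56 to -0.71, adjusted p = 0.00400), and the call held with any library left out (-1.25 to -1.05).

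Dnase2b encodes the acid nuclease that digests nuclear DNA in maturing fibres. It had 5882, 7106 and 9251 normalised reads in CON against 3409, 1723 and 2461 in KO. The groups did not overlap, and KO 2 was the lowest library. The mean went from 7413 ± 1705 to 2531 ± 845, 2.93-fold lower (log2 difference -1.51, SE 0.26, 95% interval -2.08 to -0.94, adjusted p = 0.00449). The call held with any library left out (-1.74 to -1.28).

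Tdrd7 encodes a Tudor domain protein of RNA granules, and its loss causes cataract in mouse and man. It had 105909, 60949.9 and 90010.3 normalised reads in CON against 38817, 40203 and 51352.5 in KO. CON 1 was the highest library, unlike for Bfsp1 and Bfsp2. Tdrd7 was 1.97-fold lower in KO (85623 ± 22798 to 43457 ± 6872; log2 difference -0.95, SE 0.25, 95% interval -1.49 to -0.41, adjusted p = 0.0312). Leaving out CON 3 or any 1 KO library ended the call (highest adjusted p 0.121).

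Caprin2, which encodes another RNA-binding protein of fibre cells, had 51941, 31251 and 32861 normalised reads in CON against 19634, 17113 and 23938 in KO. CON 1 was again the highest library and the groups did not overlap. Caprin2 was 1.91-fold lower (38684 ± 11509 to 20228 ± 3451; log2 difference -0.90, SE 0.24, 95% interval -1.43 to -0.37, adjusted p = 0.0343). Leaving out CON 2 or any 1 KO library ended its call (highest adjusted p 0.159), as did moderation without a mean-variance trend (adjusted p = 0.0580).

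Among the KO libraries the lowest was mostly the same one, while the order of the others varied between genes. KO 2 was the lowest KO library for 8 of the 10, all but Vim and Tdrd7, and the summed level of the 13 lens markers was also lowest there (8675880 against 12662800 in KO 1 and 11780400 in KO 3). Among CON, CON 1 was lowest for 5 genes (Bfsp1, Bfsp2, Lgsn, Grifin and Dnase2b) and highest for Tdrd7 and Caprin2, while CON 3 was lowest for 3 genes and CON 2 for 2. In CON 1 the lens marker sum was the lowest of the CON libraries (22252500 against 31752000 and 31826200), and the sum of 6 epithelium markers the highest (7209 against 3719.9 and 4665). Of the 5 epithelium markers tested, Cdh1, Pdgfra, Fgfr3 and Slc38a3 fell and Aqp1 rose, and the last 3 lost their calls in 1, 5 and 4 of the 6 fits with 1 library left out; the part of these markers in the results was not tested.

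Per kilobase of exon, the order of levels in CON was Bfsp2, Grifin, Tdrd7, Bfsp1, Caprin2, Hsf4, Vim, Dnase2b, Lgsn and Tmod1. Bfsp2 led with 216043 ± 44130 normalised reads per kilobase, and Grifin followed with 60673 ± 23193. Bfsp1 (11690 ± 3270) and Caprin2 (10464 ± 3113) overlapped in range, as did Caprin2 and Hsf4 (8248 ± 508), and Lgsn (562 ± 85.5) and Tmod1 (427 ± 46.2); the other neighbours in that order did not overlap. In KO the first 3 kept their places, with Bfsp2 at 101719 ± 20508. Vim went from the seventh place (6490 ± 545 normalised reads per kilobase) to the fourth (11100.3 ± 1299), where its range overlapped that of Tdrd7 (11261 ± 1781). Lgsn went to the last place, with 81.8 ± 36.2 and a range below that of Tmod1 (328 ± 80.3). Lengths are those of GENCODE exons and may differ from the models the reads were counted on.

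The size of these differences changed with the scaling of the libraries. Crystallin genes took 59.5% to 68.4% of the reads in CON and 40.5% to 47.5% in KO. The 10 genes together took 1.11%, 0.952% and 1.03% of the reads in CON against 0.914%, 0.891% and 1.04% in KO, and these shares overlapped. When library totals were used in place of the size factors, all genes tested had a median of 0.86, with 0.741% called lower and 28.9% higher. Under that scaling 3 of the 10 genes were called lower: Bfsp1 (-0.76, adjusted p = 0.0173), Lgsn (-2.02, adjusted p = 0.00767) and Dnase2b (-0.73, adjusted p = 0.0295). Bfsp2 was then at -0.23, Hsf4 at -0.31, Tdrd7 at -0.14 and Caprin2 at -0.09, none of them called, Vim was called at 1.61, and the signs of Grifin (0.24) and Tmod1 (0.46) turned. Relative to the median of all genes under that scaling, the difference was -1.09 for Bfsp2, -1.17 for Hsf4, -0.62 for Grifin, -0.41 for Tmod1 and 0.75 for Vim. Taking off that median largely puts back the scaling by size factors, so these values are no separate check of the differences. The calls of Bfsp2, Tdrd7 and Caprin2 also ended without a filter on low values and with quantile normalisation, where Bfsp2 stood at -0.07, and those of Tdrd7 and Caprin2 with scaling by the reads outside crystallins.

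KO 1 is the KO library whose name has the same form as those of the CON libraries, while KO 2 and KO 3 share another form, and the labels do not say what the form stands for. A fit with the form as a covariate rests on KO 1 for its KO value. In that fit the signs of all 10 genes stayed, from -1.82 for Lgsn to 0.57 for Vim, and only Lgsn was called (adjusted p = 0.0435), as lower, with 0.340% of all genes tested. The name of CON 2 gives another lane, and without CON 2 the number of the 10 genes that fell was 5 and the number that rose 0, with 2.42% of all genes tested lower and 4.57% higher.

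Other genes of the same structures moved in both directions, by lists written from general knowledge. The counts of each list stand beside 4.39% of all genes tested that fell and 6.91% that rose. No test was made of the lists against these shares. Of 10 tested partners of the filament network, 1 fell, 2 rose and 7 did not pass (median 0.40). Synm, which encodes the intermediate filament protein synemin, fell from 4001 ± 422 to 1469 ± 297 normalised reads (log2 difference -1.36, adjusted p = 0.00258). Lmna, the gene of the nuclear lamins A and C, rose from 558 ± 102 to 3899.5 ± 894 (2.47, adjusted p = 0.000181). Nes, which encodes nestin, rose from 154 ± 93.0 to 443 ± 57.1 (1.05, adjusted p = 0.0408), a call that ended with any library but CON 2 left out (highest adjusted p 0.169). Periplakin (Ppl) and plectin (Plec), which link filaments to membranes, did not pass (-0.33 and 0.35). Under scaling by total reads Synm was at -0.67 and not called (adjusted p = 0.105).

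Of 27 tested genes of the membrane skeleton and actin, 4 fell, 4 rose and 19 did not pass (median -0.04). Add2, which encodes beta adducin, fell from 865 ± 299 to 307 ± 64.7 normalised reads (-1.11, adjusted p = 0.0221). Msn, which encodes the membrane-actin linker moesin, rose from 1715 ± 787 to 5639 ± 891 (1.69, adjusted p = 0.00348), and the tropomyosin gene Tpm4 from 1901 ± 507 to 4828 ± 1310 (1.27, adjusted p = 0.00877). Further called genes, named after their values were seen, were Tpm2 (-1.15), Cap2 (-0.68), Tmod3 (1.03), which encodes another tropomodulin, and Myh10 (0.91). The calls of Add2, Tpm2, Cap2, Tmod3 and Myh10 were each lost in 4 or 5 of the 6 fits with 1 library left out (without CON 2, KO 2 or KO 3 for every one of them, and for some without CON 3 or KO 1), with highest adjusted p 0.206. Under scaling by total reads Add2 (-0.68, adjusted p = 0.239), Tpm2 (-0.69, adjusted p = 0.144) and Cap2 (0.13, adjusted p = 0.549) were not called, and with voom and the size factors Myh10 was not (adjusted p = 0.0781).

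Of 19 tested genes of organelle loss and degradation, 5 fell, 0 rose and 14 did not pass (median 0.01). Trex1, which encodes a DNA exonuclease, went from 4302 ± 494 to 1103 ± 328 normalised reads (-1.84, adjusted p = 0.000878), and Capn3, the calpain 3 gene, of which the lens makes its own splice forms, from 87171 ± 10965 to 35058 ± 5055 (-1.31, adjusted p = 0.00324). The other 3, named after their values were seen, were Plaat3 (-1.35), which encodes a phospholipase that takes part in the breakdown of lens organelles, the mitophagy receptor gene Bnip3 (-1.09) and the ubiquitin gene Ubb (-0.81). The call of Bnip3 was lost without KO 2 (adjusted p = 0.0600), and that of Ubb without any library but CON 1 (adjusted p up to 0.202). Under scaling by total reads Capn3 (-0.48, adjusted p = 0.0786), Bnip3 (-0.25, adjusted p = 0.178) and Ubb (0.05, adjusted p = 0.695) were not called, and Trex1 (-1.15) and Plaat3 (-0.51) were. The related mitophagy receptor gene Bnip3l was at -0.58 and did not pass (adjusted p = 0.0936).

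Of 14 tested genes of RNA granules and RNA binding, 2 fell and 12 did not pass (median -0.20). Celf1 (11537 ± 3379 to 5177 ± 408 normalised reads, -1.09, adjusted p = 0.0133) and Rbm24 (3663 ± 674 to 1815 ± 256, -0.94, adjusted p = 0.0161), both of them RNA-binding proteins of the lens, were the 2 that fell. Celf1 lost its call without KO 1 or KO 2 (highest adjusted p 0.0600) and Rbm24 without CON 2, KO 2 or KO 3 (highest adjusted p 0.109). Under scaling by total reads neither was called (Celf1 -0.33, adjusted p = 0.362; Rbm24 -0.14, adjusted p = 0.523). Caprin1, the paralog of Caprin2, was at 0.28 (adjusted p = 0.650). Tdrd3 was at -0.23, and Tdrd1 and Tdrd5 had no reads in any library.

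Of 11 tested genes in a list of fibre transcription factors, 2 fell, 1 rose and 8 did not pass (median -0.69). Maf, a factor that drives crystallin genes, fell from 17994 ± 3442 to 7937 ± 1994 normalised reads (-1.17, adjusted p = 0.00856), a call lost without KO 2 (adjusted p = 0.0527) and under scaling by total reads (-0.34, adjusted p = 0.104). The other that fell was Hmox1 (-1.31, adjusted p = 0.0452), a heme-degrading enzyme and no transcription factor, which the list held in error; its call was lost without any library but CON 2 (adjusted p up to 0.147) and under scaling by total reads (-0.58, adjusted p = 0.253). Pax6 rose (0.92, adjusted p = 0.0156), a call that ended without CON 2 or any 1 KO library (highest adjusted p 0.0714); the summed level of 9 retina markers ran from 872 to 1472 in CON and from 2267 to 3784 in KO, and their part was not tested. Prox1 (-0.36), Gata3 (-0.69) and Sox1 (-1.03), which act in fibre differentiation, did not pass. Of the 5 genes related to Lgsn and Grifin, the galectin genes Lgals1 (1.66, adjusted p = 0.000633) and Lgals3 (4.05, adjusted p = 2.18e-05) rose, and Glul, the glutamine synthetase gene, was at 0.65 (adjusted p = 0.0971). Lgals3 is also a gene of macrophages, whose markers rose in part as given above.

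**Figure D4:**
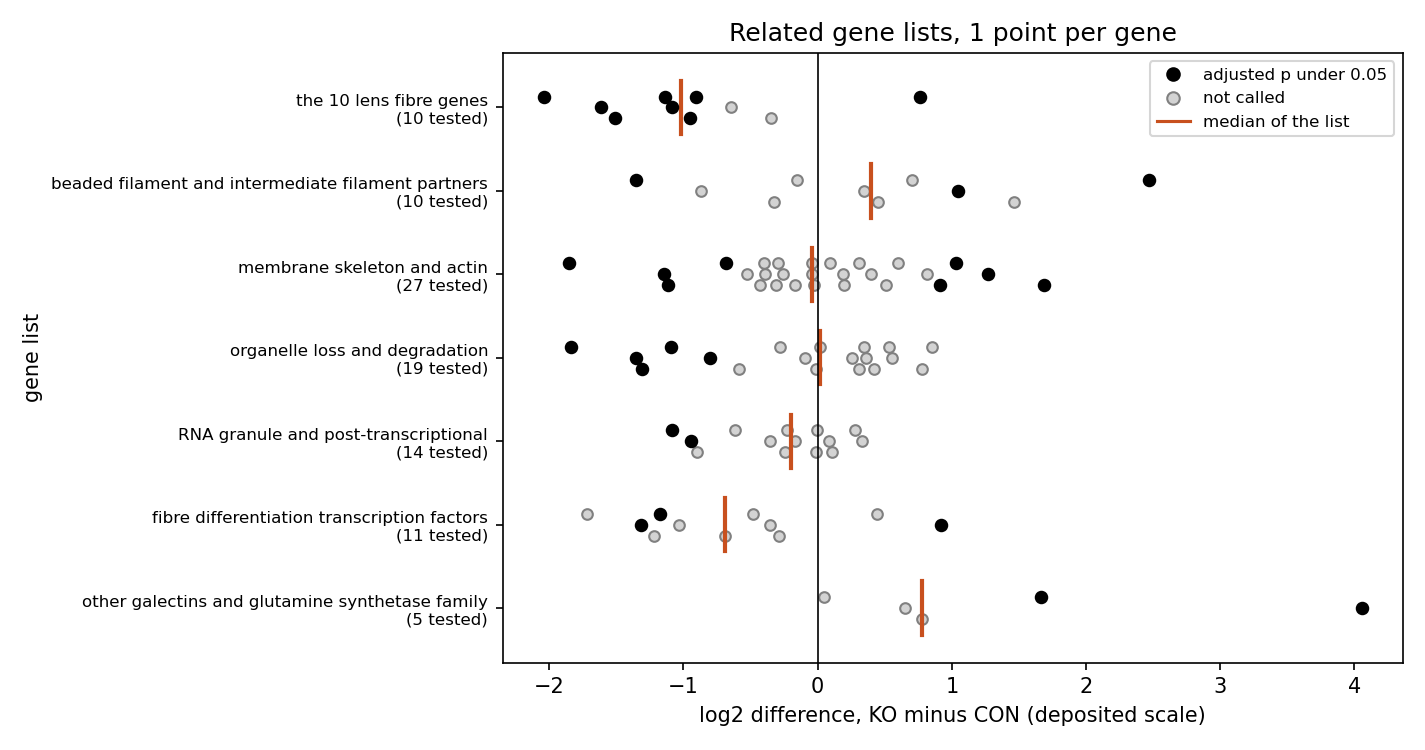
Log2 difference KO minus CON on the deposited scale (horizontal axis), with 1 point per tested gene, black where called and grey where not, and an orange line at the median of each list. The median lies at -1.02 for the 10 lens fibre genes and between -0.69 and 0.78 for the 6 related lists; it was -1.38 for the 13 lens markers and -1.27 for the 5 tested epithelium markers, which are not plotted.

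The genes whose deposited log2 values followed Bfsp2 most closely over the 6 libraries were Cryba4 (Pearson r = 0.997), Tmem40 (0.996) and Cryba1 (0.996). Those that followed Vim were Cdh4 (0.998), Prelp (0.997) and Pla2g5 (0.997). Among the other 9 genes described here, Bfsp1 (0.983), Dnase2b (0.973) and Lgsn (0.972) were nearest to Bfsp2, and Tdrd7 (0.729) and Caprin2 (0.710) further from it. With 2 groups of 3 libraries these values rest largely on the difference between the groups, and all of them share the libraries and their size factors.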

How the data were processed

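RNA of mouse lenses was sequenced in 6 libraries, 3 per group. Per the submitters' processing notes, Trimmomatic, HISAT2 2.1.0, featureCounts 1.6.4 and DESeq2 (version given as 2.11.0.6) were used, with build mm9. The authors deposited 1 table of log2 values for 27179 Entrez identifiers, variance-stabilised with DESeq2 per the file's name and values, in which genes with no reads stand at 6.50. Inverting the transformation gave whole reads for 100% of values (tolerance 0.1 read, largest distance 0.0165) and size factors equal to median-of-ratios ones. Symbols came from RefSeq (GRCm38.p6), which matched 25275 identifiers; exon lengths and overlaps came from GENCODE M21.

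The groups were compared on the deposited log2 values by limma 3.58.1 (R 4.3.3; lmFit, and eBayes allowing for a trend of variance with the mean). Genes entered where their mean exceeded the lowest value by 1 unit or more (11468), with Benjamini-Hochberg adjustment over all of them. Alternatives changed the filter, the scaling (equal medians, quantile, voom on recovered reads), the moderation, weights, covariates, threshold or libraries. A few called genes of the lists are not reported here. The script was tested on simulated data. The 10 genes, the related lists, the rule for naming genes (up to 2 called genes with the smallest p per list and direction, and the 3 genes most like Bfsp2 and Vim) and the alternatives were chosen with earlier results of these data known. Counts and intervals cover the spread and counting error of these libraries only, since reads carry no molecular identifiers.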

Additional observations from a re-analysis of the deposited data

How the results depend on the processing

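With the alternatives to the filter, scaling, values, moderation, weights and covariates, the number of the 10 genes that fell (7) was 4 without a filter, 4 with quantile normalisation, 3 under scaling by total reads, 1 with the form of the library name as a covariate and 4 at an adjusted p under 0.01. It was 5 to 8 with the other alternatives on all 6 libraries apart from the replicate block, among them 6 with a filter of 3 units, where Lgsn was not tested. The number that rose (1, Vim) was 0 with equal medians, without a trend, with the name covariate and at an adjusted p under 0.01. With 1 library left out, 4 to 8 fell and 0 to 1 rose. The signs of Tmod1 (0.46) and Grifin (0.24) turned under scaling by total reads. The cause was not tested.

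Over all genes tested, 4.39% were lower and 6.91% higher. The shares were 1.87% lower without a filter, 9.22% lower with a filter of 3 units, 3.67% higher (and 4.12% lower) with voom and the authors' size factors, 0.741% lower and 28.9% higher with voom and total reads, 2.55% lower with voom and reads outside crystallins, 8.14% lower and 10.6% higher with library weights, 0.340% lower and 1.78% higher with the name covariate, and 1.48% lower and 2.86% higher at an adjusted p under 0.01. With equal library medians, 6.25% were lower and 5.61% higher, and with quantile normalisation 5.28% were lower and 6.64% higher. With 1 library left out, 1.53% (without KO 2) to 7.48% (without CON 1) were lower and 3.11% (without KO 2) to 9.46% (without CON 1) higher.

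The replicate numbers were not shown to pair the libraries: residuals of equal numbers correlated at -0.36, -0.13 and -0.14. With the replicate number as a block, 4 of the 10 genes fell and 0 rose, and 2.69% of all genes tested were lower and 5.28% higher. The calls of Bfsp2, Vim, Tdrd7 and Caprin2 were the ones lost in the block fit (adjusted p from 0.0836 to 0.121).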

Other observations

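Some genes of the list of filament partners that were not called are given here, chosen after their values were seen. Dsp, which encodes desmoplakin of desmosomes, had no reads in any CON library and 65.7, 96.8 and 109 normalised reads in KO. Evpl, the gene of envoplakin, had 27.4, 3.15 and 0 in CON against 54.7, 45.1 and 69.8 in KO. Both were under the filter and were not tested. The keratin genes Krt8 and Krt18 were highest in KO 1, with 949 and 1926 normalised reads there against 65.5 and 411 in KO 2 and 70.3 and 403 in KO 3. In CON, Krt8 had 84.4, 116 and 50.1, around the values of KO 2 and KO 3, and Krt18 had 117, 280 and 127, below all KO libraries (1.46, adjusted p = 0.0611). Krt14 had 74.9 in KO 1 and none in the other 5 libraries.

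Further ratios within libraries were chosen after the values were seen. Tdrd7 stood at 1.95, 1.87 and 2.62 of Caprin2 per kilobase in CON against 1.89, 2.25 and 2.06 in KO, with overlapping ranges. Grifin went from 5.08 ± 0.693 (SD, n = 3) of Bfsp1 in CON to 10.1 ± 1.63 in KO, without overlap. Dnase2b to Hsf4 overlapped between the groups (0.325 ± 0.0928 and 0.245 ± 0.0853).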
